A study of Rattus norvegicus with 30 samples.

Results

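The genes described here are 10 genes of the antioxidant response that is driven by the transcription factor NRF2. They are known members of the pathway, chosen by gene symbol with earlier results of these data known, and all 10 were measured by 1 probe set each among the 18166 rat genes with a named probe set. Nfe2l2 encodes NRF2 itself and Keap1 its inhibitor. The other members are the NRF2 target genes Srxn1, Txnrd1, Gclc, Gclm, Slc7a11, Hmox1, Nqo1 and Osgin1. Liver RNA of 30 wild-type Wistar rats was hybridised to Affymetrix Rat Gene 2.0 ST arrays, 1 array for each rat. The rats formed 5 groups of 6: unoperated, sham-operated, and operated by partial hepatectomy, which removes a stated share of the liver, at 30% (PH30), 70% (PH70) or 90% (PH90). Liver was taken 24 hours after surgery, and the labels state neither the sex nor the age of the rats. The labels give each rat a number of its own and name no litter, cage or batch.

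NRF2 is made continuously and, in resting cells, is bound by KEAP1, which passes it to an ubiquitin ligase for degradation. Oxidants and electrophiles modify cysteines of KEAP1, NRF2 then escapes degradation, pairs with a small MAF protein and binds antioxidant response elements near its target genes. The pathway is therefore regulated mainly at the level of the NRF2 protein, which arrays do not measure. In liver its targets make glutathione, reduce peroxiredoxins and thioredoxin, break down haem and detoxify quinones and electrophiles.

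The promoters of Gclm, Srxn1 and Txnrd1 are shown because these genes carry differences described below. The form of the element found in Srxn1 differs from the form shared by Gclm and Txnrd1. Promoter sequences are those of RefSeq on build GRCr8, which lists 10 promoters for 9 of the 10 members, and each window searched ran from 250 bases before to 50 bases after the start. The core motif TGACNNNGC was searched on both strands and was found in 3 of the 10 windows, those of Gclm, the 2nd start of Txnrd1 and Nfe2l2, and in 12.1% of the 33469 rat promoters in the table. After the sequences were seen, the related form TGAGNNNGC and the 7-base motif TGACTCA were searched as well. Each was found in the Srxn1 window alone among the members, and they occur in 17.2% and 4.63% of all promoters. A match describes letters in a window and does not show that a factor binds there.
The Gclm stretch lies at chr2:213031915-213032074 on the plus strand, the Srxn1 stretch at chr3:161064672-161064831 on the plus strand and the Txnrd1 stretch at chr7:22755885-22756044 on the minus strand, with capitals marking the matches.
Gclm: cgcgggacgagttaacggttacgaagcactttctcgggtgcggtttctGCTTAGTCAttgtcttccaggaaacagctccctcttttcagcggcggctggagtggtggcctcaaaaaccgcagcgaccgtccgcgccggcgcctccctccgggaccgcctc
Srxn1: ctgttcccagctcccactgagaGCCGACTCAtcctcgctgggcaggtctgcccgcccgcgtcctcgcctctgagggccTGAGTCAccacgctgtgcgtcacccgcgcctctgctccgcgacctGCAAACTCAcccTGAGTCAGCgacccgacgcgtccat
Txnrd1: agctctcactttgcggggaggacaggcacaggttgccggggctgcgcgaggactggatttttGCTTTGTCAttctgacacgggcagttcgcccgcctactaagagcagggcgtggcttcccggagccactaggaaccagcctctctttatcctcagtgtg
Counted from the start, the Gclm match begins at -172 and reads TGACTAAGC on the opposite strand. The Txnrd1 match begins at -78 and reads TGACAAAGC on the opposite strand. In Srxn1 the TGAGNNNGC matches begin at -118, -17 and -5, and TGACTCA matches begin at -62 and -5, the last of which overlaps the third TGAGNNNGC match. Hmox1 is not in the promoter table.

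Values below are on a log2 scale and are centred on each probe set's median over the 30 rats, so 0 is the middle of all rats and levels of different genes cannot be compared. Nor can the centred values show whether the markers of liver cells are present. Differences were tested with limma across all 18166 genes, with Benjamini-Hochberg adjustment, and a gene was called at an adjusted p below 0.05. Every comparison with sham uses the same 6 sham arrays, so the comparisons are not independent of each other. The arrays hold bulk liver RNA, in which fewer cells of a type and less RNA per cell cannot be told apart. A pair of arrays stood apart from their groups. Over all genes, the array of PH30 rat 95 correlated on average at -0.113 with its own group, where the others reached 0.18 to 0.245, and at 0.498 with the PH70 arrays. The array of PH70 rat 139 correlated on average at -0.114 with its own group, where the others reached 0.493 to 0.546, and at 0.203 with the sham arrays. Rat 95 was the highest PH30 rat for 7 members, and rat 139 was the lowest PH70 rat for 5. All 24 calls made on the members over the 7 comparisons among sham, unoperated and resected livers were kept without both rats, and 11 further differences were called, among them Nqo1 and Gclc in PH70 against sham. Both rats were picked from these same data, so the kept and added calls are no independent support. Over all genes, calls in PH70 against sham also went from 3386 to 4301.

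Across the 5 groups, 9 of the 10 members differed by the moderated F test of limma, in a table where 42.7% of all genes did. Gclm (adjusted p = 2.7e-11) and Srxn1 (adjusted p = 1.5e-08) varied most clearly, and Slc7a11 (adjusted p = 0.53) was the member that did not pass. The members did not move as 1 block. In PH90 against sham, 3 members rose, namely Srxn1, Hmox1 and Txnrd1, and 4 fell, namely Gclm, Gclc, Osgin1 and Keap1. Of all genes, 19.9% rose and 14.7% fell in that comparison. The median log2 difference of the 10 members was -0.10, beside 0.00 over all genes. In PH70 against sham, Txnrd1, Srxn1 and Hmox1 rose and Gclm fell, with 10.5% of all genes higher and 8.15% lower. The members' median was 0.30, beside -0.01 over all genes. In PH30 against sham, 0 members rose and 1, Gclm, fell, with 2.2% of all genes higher and 3.34% lower. By limma's unadjusted p, 2 members were higher and 2 lower at 0.05 in PH30.

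**Figure D1:**
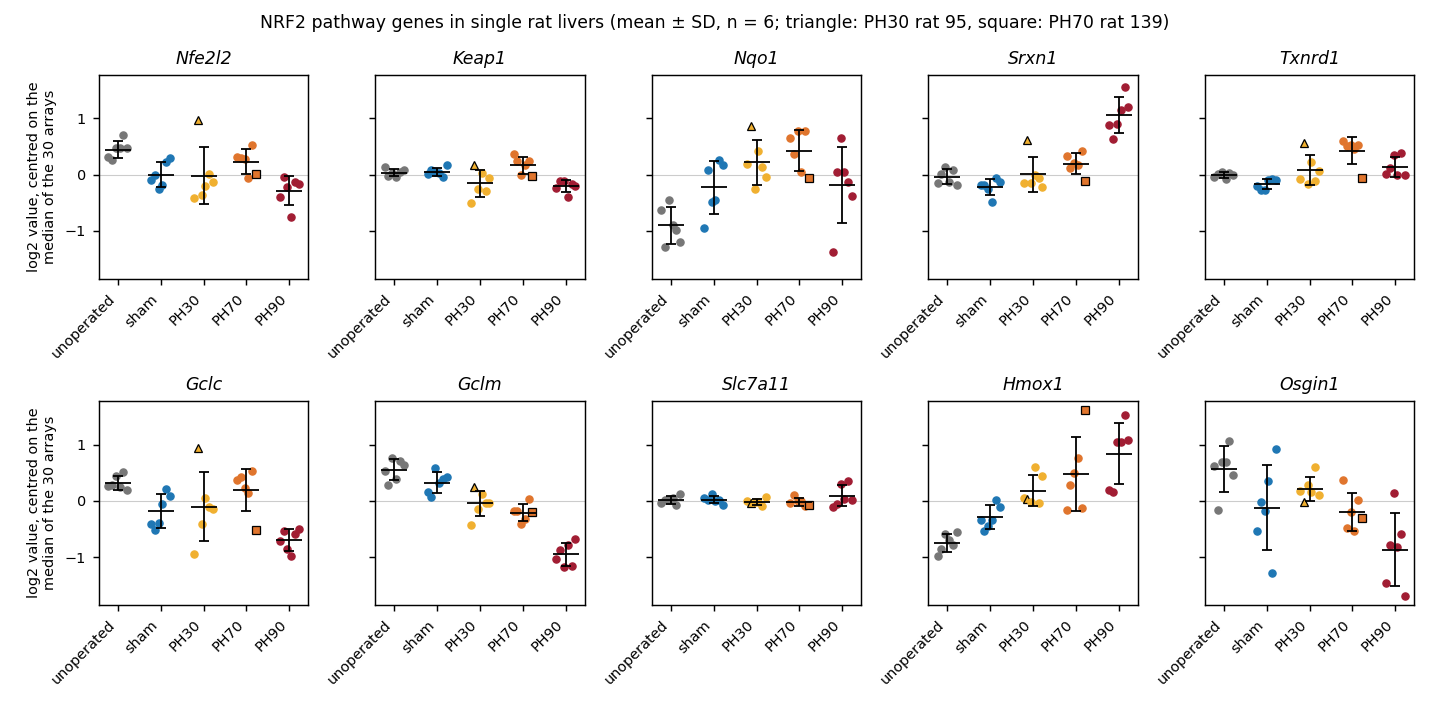
Log2 values of the 10 genes, centred on each probe set's median over 30 rats, for unoperated, sham, PH30, PH70 and PH90 livers. Each point is 1 rat, the bars are the mean ± SD of 6 rats, and PH30 rat 95 and PH70 rat 139 are drawn as a triangle and a square. In PH90 livers Srxn1 lies between 0.63 and 1.56, above all other rats, the nearest being PH30 rat 95 at 0.62, and Gclm lies between -1.17 and -0.67, below all other rats.

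Among the regulators, Nfe2l2 RNA was not called different from sham in any resection group, and Keap1 RNA fell slightly in PH90. Nfe2l2 values ran from 0.25 to 0.70 (median 0.47) in unoperated livers and from -0.25 to 0.30 (median -0.05) in sham livers. They ran from -0.42 to 0.97 (median -0.16) in PH30, from -0.07 to 0.52 (median 0.29) in PH70 and from -0.76 to -0.05 (median -0.19) in PH90. All 6 PH90 rats lay below the sham mean but the groups overlapped. The log2 difference of PH90 from sham was -0.29 (SE 0.16, adjusted p = 0.2). PH90 was below PH70 by a log2 difference of -0.51 (limma adjusted p = 0.019), a call lost without PH70 rat 136 (difference -0.46, adjusted p = 0.055) or PH90 rat 87 (difference -0.42, adjusted p = 0.066). Relative to unoperated livers the PH90 difference was -0.73 (limma adjusted p = 6e-04).

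Keap1, the adaptor that holds NRF2 for degradation, ranged from -0.39 to -0.11 (median -0.18) in PH90 livers and from -0.04 to 0.17 (median 0.04) in sham livers. The groups did not overlap, which was true of 20.6% of all genes in this comparison. Keap1 fell by 0.25 on the log2 scale in PH90 (SE 0.08, limma adjusted p = 0.019), and without PH90 rat 87 it fell by 0.21 with an adjusted p of 0.06. In PH70 livers it ranged from -0.03 to 0.37 (median 0.21) and in PH30 livers from -0.50 to 0.16 (median -0.16). PH70 exceeded PH30 by 0.32 (limma adjusted p = 0.039). It was 1 of 10 members higher in that comparison, where 1.76% of all genes were higher, and 0 were lower, where 0.512% of all genes were. By limma's unadjusted p, 2 members were higher and 0 lower at 0.05. The Keap1 call was lost in 9 of the 12 fits that left out 1 rat, those without PH30 rats 65, 98, 130 or 140 or PH70 rats 37, 58, 59, 97 or 136, and over all 12 the difference ranged from 0.25 to 0.38. Keap1 in PH30 against sham was not called (-0.20, adjusted p = 0.15), but was without PH30 rat 95 (-0.26, adjusted p = 0.033).

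Srxn1 and Txnrd1 serve the peroxiredoxin and thioredoxin systems. Srxn1 encodes sulfiredoxin, which repairs over-oxidised peroxiredoxins, and it had the largest rise of any member against sham. Its values ran from -0.18 to 0.14 (median -0.06) in unoperated livers, from -0.48 to -0.07 (median -0.18) in sham livers and from -0.22 to 0.62 (median -0.11) in PH30 livers. They ran from -0.11 to 0.42 (median 0.19) in PH70 and from 0.63 to 1.56 (median 1.02) in PH90. The PH90 rats lay above all sham rats, and 20.6% of all genes were separated in either direction in PH90 against sham. The log2 difference was 1.27 in PH90 (SE 0.13, limma adjusted p = 3e-09), a 2.42-fold rise, and 0.41 in PH70 (SE 0.13, adjusted p = 0.024). The PH30 difference of 0.22 was not called (adjusted p = 0.35). The PH70 call was lost without PH70 rat 37 (0.38, adjusted p = 0.057), PH70 rat 136 (0.36, adjusted p = 0.067) or sham rat 114 (0.36, adjusted p = 0.068). PH90 also exceeded PH70 by 0.86 (limma adjusted p = 6.4e-06) and PH30 by 1.05 (adjusted p = 1.5e-07).

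Txnrd1 encodes cytosolic thioredoxin reductase, which uses NADPH to keep thioredoxin reduced. Its values ran from -0.08 to 0.05 (median 0.00) in unoperated livers and from -0.27 to -0.08 (median -0.15) in sham livers. They ran from -0.16 to 0.56 (median 0.00) in PH30, from -0.06 to 0.60 (median 0.51) in PH70 and from 0.00 to 0.37 (median 0.06) in PH90. Both PH70 and PH90 lay above all sham rats. Such separation in either direction was seen in 7.34% of all genes for PH70 and 20.6% for PH90. Txnrd1 rose by 0.59 in PH70 (SE 0.10, limma adjusted p = 0.00013), a 1.51-fold change, and by 0.31 in PH90 (SE 0.10, adjusted p = 0.021). The PH90 call was lost without PH90 rat 61 (0.27, adjusted p = 0.059) or rat 106 (0.26, adjusted p = 0.062). PH90 was below PH70 by a log2 difference of -0.28 (limma adjusted p = 0.045). This call was lost in 9 of 12 fits without 1 rat, those without PH70 rats 37, 58, 59, 97 or 136 or PH90 rats 39, 43, 87 or 111. Over all 12 fits the difference ranged from -0.38 to -0.25. PH70 was not called against PH30 (0.34, limma adjusted p = 0.073), but was without PH30 rat 95 (0.44, adjusted p = 0.0024) or PH70 rat 139 (0.44, adjusted p = 0.0031). Sham was not called against unoperated (-0.16, limma adjusted p = 0.63), and neither was PH90 (0.15, adjusted p = 0.33).

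Glutathione synthesis is represented by the cystine importer Slc7a11 and the catalytic and modifier subunits of glutamate-cysteine ligase, Gclc and Gclm. Gclm fell in all 3 resection groups, with the largest fall of any member. Its values ran from 0.28 to 0.77 (median 0.58) in unoperated livers and from 0.07 to 0.59 (median 0.36) in sham livers. They ran from -0.43 to 0.25 (median -0.04) in PH30, from -0.41 to 0.03 (median -0.19) in PH70 and from -1.17 to -0.67 (median -0.96) in PH90. PH70 and PH90 lay below every sham rat, while PH30 overlapped sham. Of all genes, 7.34% were separated from sham in either direction in PH70 and 20.6% in PH90. Gclm fell by 1.28 in PH90 (SE 0.11, limma adjusted p = 1.1e-10), that is 2.42-fold lower, by 0.54 in PH70 (adjusted p = 0.00058) and by 0.37 in PH30 (adjusted p = 0.04). The PH30 call was lost in 8 of 12 fits without 1 rat, which left out PH30 rats 65, 98, 130 or 140 or sham rats 141, 112, 114 or 143. Over all 12 fits the difference ranged from -0.43 to -0.30. PH90 was below PH70 by a log2 difference of -0.74 (limma adjusted p = 4.7e-06) and below PH30 by -0.90 (adjusted p = 1.1e-07).

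Gclc was called lower than sham in PH90 and not in PH30 or PH70, and the difference between Gclc and Gclm was not tested. Gclc ran from 0.20 to 0.51 (median 0.27) in unoperated livers and from -0.52 to 0.20 (median -0.23) in sham livers. The range was -0.94 to 0.94 (median -0.13) in PH30, -0.52 to 0.52 (median 0.30) in PH70 and -0.98 to -0.50 (median -0.65) in PH90. The PH90 and sham ranges overlapped at the PH90 group's upper end. Gclc fell by 0.51 in PH90 (SE 0.20, limma adjusted p = 0.045). This call was lost in 7 of 12 fits without 1 rat, which left out PH90 rats 39, 61, 87 or 106 or sham rats 141, 114 or 143. Over all 12 fits the difference ranged from -0.58 to -0.43. The PH70 difference of 0.38 was not called (adjusted p = 0.22) and was called at 0.52 without PH70 rat 139 (limma adjusted p = 0.049). PH90 was below PH70 by a log2 difference of -0.89 (limma adjusted p = 0.001) and below PH30 by -0.59 (adjusted p = 0.021), the last of which was lost without PH30 rat 95 (-0.39, adjusted p = 0.075) or PH90 rat 87 (-0.54, adjusted p = 0.053). PH70 livers had the highest Gclc median of the operated groups while their Gclm median was below that of sham.

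Slc7a11 values stayed within -0.11 to 0.35 over all 5 groups, with medians of 0.01, 0.02, -0.02, -0.02 and 0.03 for unoperated, sham, PH30, PH70 and PH90. PH90 rats 106 (0.35) and 61 (0.29) had the highest values, and sham rat 112 came next at 0.13. The log2 difference of PH90 from sham was 0.07 with a 95% interval of -0.06 to 0.19 (limma adjusted p = 0.48). Because signal over background is lost in the centred values, it is not known whether this probe set was above background.

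**Figure D2:**
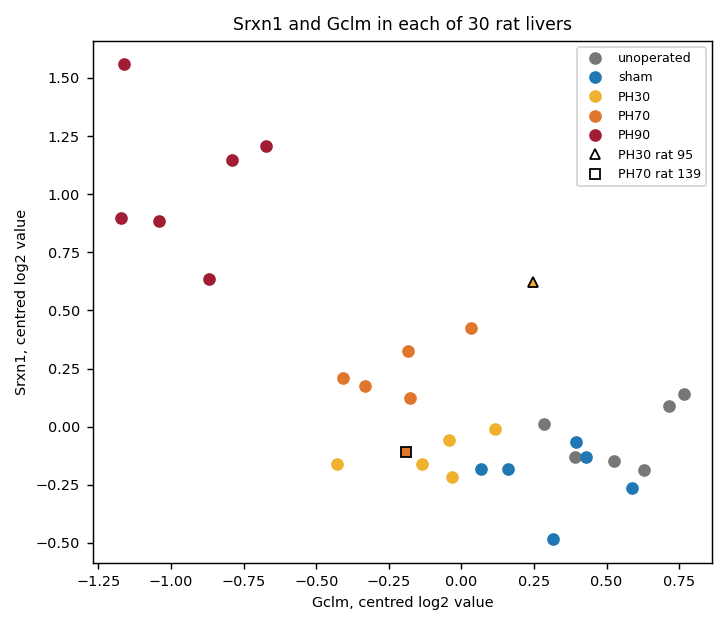
Srxn1 and Gclm in each rat, as log2 values centred on each probe set's median, with 1 point for each of the 30 rats coloured by group. Srxn1 minus Gclm lies between -0.81 and -0.27 in unoperated livers, between -0.85 and -0.25 in sham, between -0.18 and 0.38 in PH30, between 0.08 and 0.62 in PH70 and between 1.502 and 2.72 in PH90 livers.

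Taken within each rat, Srxn1 minus Gclm averaged -0.59 ± 0.18 in unoperated livers, -0.54 ± 0.24 in sham livers, 0.05 ± 0.22 in PH30, 0.40 ± 0.19 in PH70 and 2.01 ± 0.40 in PH90 (SD, n = 6 each). The PH90 rats lay above the rats of every other group, and the PH30 rats lay above the sham rats. These values are given as a description, since the pair was chosen after its values were seen.

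Hmox1 encodes the inducible haem oxygenase, which breaks haem down to biliverdin, carbon monoxide and iron. It ran from -0.99 to -0.56 (median -0.74) in unoperated livers, from -0.54 to 0.02 (median -0.34) in sham livers and from -0.03 to 0.61 (median 0.04) in PH30 livers. It ran from -0.17 to 1.61 (median 0.39) in PH70 and from 0.16 to 1.52 (median 1.04) in PH90. PH90 rats lay above all sham rats. Sham rats lay above all unoperated rats, but the difference of 0.46 was not called (limma adjusted p = 0.46). Of all genes, 20.6% were separated in either direction in PH90 against sham and 2.84% in sham against unoperated. Hmox1 rose by 1.13 in PH90 (SE 0.23, limma adjusted p = 0.00017), a 2.19-fold change, and by 0.77 in PH70 (SE 0.23, adjusted p = 0.016), where the rise without rat 139 was 0.54 (adjusted p = 0.046). The PH30 difference of 0.47 was not called (adjusted p = 0.24). PH90 exceeded PH30 by 0.66 (limma adjusted p = 0.026). This call was lost in 6 of 12 fits without 1 rat, those without PH30 rats 98 or 130 or PH90 rats 61, 87, 106 or 111. Over all 12 fits the difference ranged from 0.52 to 0.80. PH70 rat 139 had the highest Hmox1 value of any rat, and without it PH90 exceeded PH70 by 0.59 (limma adjusted p = 0.026) rather than 0.36 (adjusted p = 0.3).

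Hmox1 is also made by macrophages, and markers of other cells moved in the same livers. Of 9 neutrophil markers, 3 rose and 0 fell in PH90 against sham, including S100a8 (0.56, limma adjusted p = 0.01), and their mean over the list ran from -0.01 to 0.27 in PH90, against -0.11 to 0.06 in sham. In PH70 that mean ran from 0.00 to 0.63 and was highest in rat 139. Of 14 Kupffer cell and macrophage markers, 1 rose and 7 fell in PH90, with list means from -0.61 to -0.03 in PH90, against -0.05 to 0.23 in sham. Rat 139 was also the highest PH70 rat on that list, at 0.42. Of 7 hepatocyte markers measured, 0 rose and 3 fell in PH90, with list means from -0.46 to -0.26 in PH90, against -0.01 to 0.15 in sham. Cyp2e1 carries most of that shift at -2.52, with Hnf4a at -0.27 and Ttr at -0.22, while Alb (-0.07), Apob (0.03), Cps1 (0.18) and Serpina1 (0.02) were not called, and the median of the list was -0.07. Of 5 red cell markers measured, 0 rose and 2 fell in PH90, with list means from -0.26 to 0.06 in PH90, against 0.16 to 0.45 in sham. In unoperated livers the list means ran from -0.30 to 0.05 for red cell and from -0.31 to 0.07 for Kupffer cell and macrophage markers. They ran from -0.21 to -0.07 for neutrophil and from 0.05 to 0.19 for hepatocyte markers. In sham against unoperated, 1 red cell marker rose and 0 fell, beside 0.308% and 0.429% of all genes. In PH90 against sham, 0 of 9 lymphocyte markers were higher and 2 lower. The counts were 0 and 2 of 5 endothelial markers, 2 and 3 of 8 stellate cell markers and 1 and 0 of 6 cholangiocyte markers. All these counts for PH90 against sham stand beside 19.9% of all genes higher and 14.7% lower. The part of these changes in the values of the 10 genes was not tested.

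Nqo1 was not called against sham in any resection group, and Osgin1 fell in PH90. Nqo1 encodes a quinone reductase that works with NADPH. It ran from -1.28 to -0.44 (median -0.94) in unoperated livers, from -0.95 to 0.25 (median -0.18) in sham livers and from -0.27 to 0.87 (median 0.16) in PH30. It ran from -0.06 to 0.78 (median 0.51) in PH70 and from -1.37 to 0.65 (median -0.04) in PH90, which spanned the sham range. The PH90 difference from sham was 0.04 (SE 0.25, limma adjusted p = 0.93) and the PH70 difference was 0.66 (adjusted p = 0.069), called at 0.75 without PH70 rat 139 (adjusted p = 0.036) or sham rat 141 (adjusted p = 0.045). PH90 was not called against PH70 (-0.62, limma adjusted p = 0.077), but was without PH70 rat 139 (-0.71, adjusted p = 0.045) or PH90 rat 61 (-0.78, adjusted p = 0.02), and over the 12 fits without 1 rat the difference ranged from -0.78 to -0.38. Osgin1 encodes an oxidative stress induced growth inhibitor. It ran from -0.15 to 1.07 (median 0.66) in unoperated, -1.29 to 0.92 (median -0.10) in sham, -0.03 to 0.59 (median 0.17) in PH30, -0.54 to 0.36 (median -0.26) in PH70 and -1.69 to 0.14 (median -0.80) in PH90 livers. Osgin1 fell by 0.74 in PH90 against sham (SE 0.28, limma adjusted p = 0.038) with overlapping groups. The call was lost in 7 of 12 fits without 1 rat, which left out PH90 rats 39, 87 or 111 or sham rats 45, 112, 114 or 143. Over all 12 fits the Osgin1 difference ranged from -0.97 to -0.53. PH90 was below PH30 by a log2 difference of -1.08 (limma adjusted p = 0.0029).

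**Figure D3:**
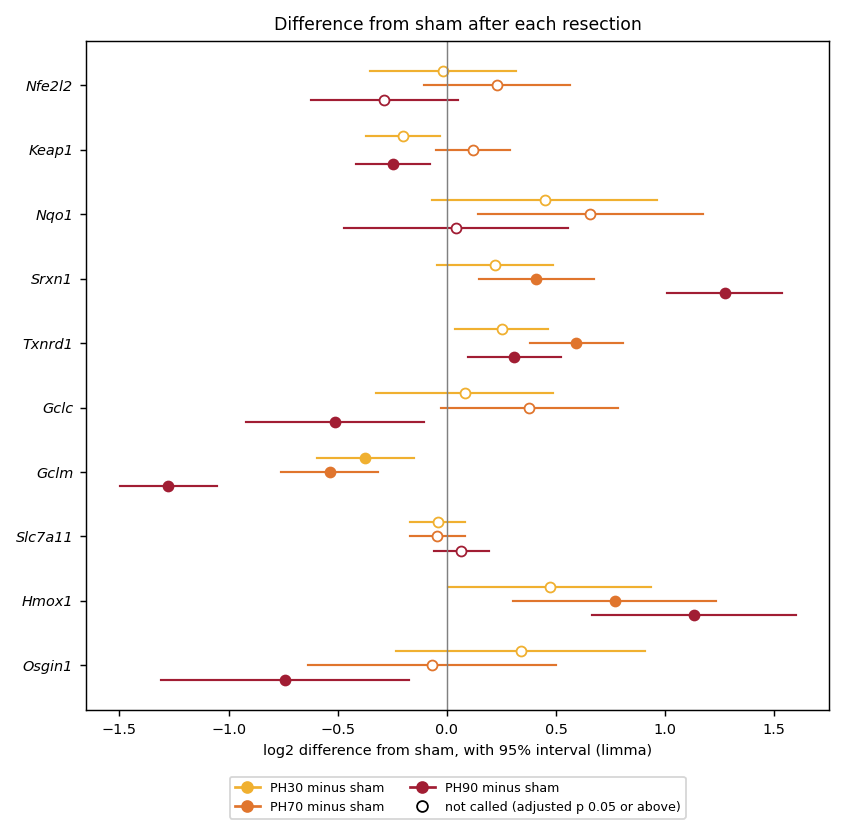
Log2 difference from sham of each of the 10 genes in PH30, PH70 and PH90 livers, with 95% intervals from limma (n = 6 rats a group). Filled markers are called at an adjusted p below 0.05. Srxn1 and Gclm lie at 1.27 and -1.28 in PH90, on opposite sides of 0.

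The other pairs of groups show where the 2 larger resections part. In PH90 against PH70, 1 member, Srxn1, rose and 5 fell, namely Gclc, Gclm, Txnrd1, Nfe2l2 and Keap1, with 14.1% of all genes higher and 10.4% lower. The median of the members was -0.44. In PH90 against PH30, Srxn1 and Hmox1 rose and Gclc, Gclm and Osgin1 fell, with 18.4% of all genes higher and 13.1% lower. In sham against unoperated, 0 of the 10 members were called by limma, with 0.308% of all genes higher and 0.429% lower, while at an unadjusted p of 0.05 1 member was higher and 4 were lower. These were Nqo1 (0.68, adjusted p = 0.25), Nfe2l2 (-0.45, adjusted p = 0.24), Gclc (-0.50, adjusted p = 0.29), Osgin1 (-0.69, adjusted p = 0.31) and Gclm (-0.23, adjusted p = 0.44).

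Each resection group was also set against unoperated livers. In PH30, Nqo1 and Hmox1 rose and Gclm fell, with 3.48% of all genes higher and 6.37% lower. In PH70, Nqo1 (1.33, limma adjusted p = 0.00032), Txnrd1 and Hmox1 rose and Gclm fell, with 9.31% higher and 9.17% lower. In PH90, 3 rose, Nqo1 (0.72, limma adjusted p = 0.026), Srxn1 and Hmox1, and 5 fell, Gclc, Gclm, Osgin1, Nfe2l2 and Keap1, with 19.3% higher and 14.5% lower. The unoperated rats carry the highest rat numbers, so their order and the lack of an operation cannot be told apart.

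**Figure D4:**
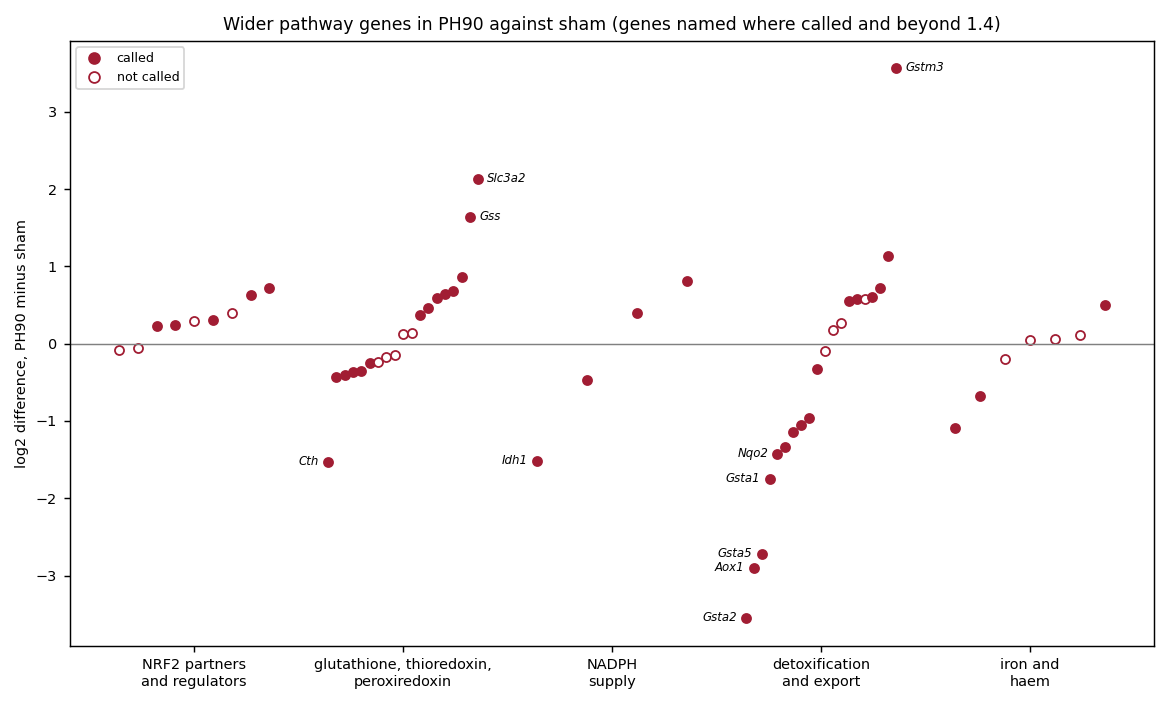
Log2 difference of PH90 from sham for genes of 5 wider lists around NRF2, 1 point for each gene, with genes named where called and beyond 1.4. Gstm3 lies at 3.56 and Gsta2 at -3.55, so genes of the detoxification list lie on both sides of 0.

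Genes around NRF2 were counted from 5 lists. In this and the next paragraph, the counts stand beside 19.9% of all genes higher and 14.7% lower in PH90 against sham. The shares were 10.5% and 8.15% in PH70 and 2.2% and 3.34% in PH30. Of 9 partners and regulators, 5 rose and 0 fell in PH90 against sham, with a list median of 0.30, beside 1 and 1 in PH70 and 0 and 0 in PH30. Mafk, a small MAF protein that pairs with NRF2, rose by 0.72 (limma adjusted p = 9.1e-07), and Rbx1, a subunit of the ligase that KEAP1 serves, rose by 0.63 (adjusted p = 7.5e-07). Sqstm1, which can remove KEAP1 by autophagy, fell by 0.45 in PH70 (limma adjusted p = 0.011), and its PH90 difference was 0.30 and not called (adjusted p = 0.066). Of 19 genes of the glutathione, thioredoxin and peroxiredoxin system, 8 rose and 6 fell in PH90, with a median of 0.13. The heavy chain partner of the cystine importer, Slc3a2, rose 4.36-fold in PH90 (limma adjusted p = 1.8e-12), and glutathione synthetase, Gss, rose 3.11-fold (adjusted p = 4.7e-11). Both also rose in PH70, by 0.58 and 0.61. Cth, which makes cysteine from cystathionine, fell by 1.53 in PH90 (limma adjusted p = 4.1e-05).

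Of 6 genes listed under NADPH supply, 4 were measured. Of these, 2 rose and 2 fell in PH90, beside 2 and 1 in PH70 and 1 and 0 in PH30. Taldo1 and Tkt, of the pentose phosphate pathway, rose by 0.81 and 0.40 in PH90. The cytosolic isocitrate dehydrogenase gene Idh1 fell by 1.52 and Me1 fell by 0.48. Tkt was chosen for PH90 after its value was seen. In PH70 Tkt rose by 0.70, Taldo1 rose by 0.52 and Idh1 fell by 0.61, and in PH30 Tkt rose by 0.51. In sham against unoperated livers 0 of the 4 rose and 2 fell, beside 0.308% and 0.429% of all genes. In PH90 against unoperated livers 1 rose and 2 fell, beside 19.3% and 14.5%. Of 20 measured detoxification enzymes and exporters, 6 rose and 10 fell in PH90, with a median of -0.21, beside 0 and 2 in PH70 and 0 and 0 in PH30. Gstm3 rose 11.8-fold (limma adjusted p = 5e-10), Gsta2 fell 11.7-fold (adjusted p = 1.3e-12) and Aox1, aldehyde oxidase, fell 7.45-fold. Glutathione S-transferase genes have near-identical copies, so probes may report more than 1 of them and these values are uncertain. Of 7 genes of iron and haem handling, 1 rose and 2 fell in PH90, beside 2 and 2 in PH70 and 0 and 2 in PH30. The iron exporter Slc40a1 fell by 0.55 in PH30, 0.98 in PH70 and 1.09 in PH90. Ferrochelatase (Fech) fell by 0.41 in PH30, 0.38 in PH70 and 0.68 in PH90. The ferritin light chain gene Ftl1 rose by 0.36 in PH70 and 0.49 in PH90.

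Likeness was measured as Pearson's r over the 30 rats, which share the differences between groups. Gclc and Nfe2l2 were most like each other (r = 0.891) among all genes measured. Gclm was most like Mpc1 (0.95), Enpp2 (0.948) and Pign (0.942), and Srxn1 most like Ctps1 (0.953), Actr3 and Gtf2f1 (0.946 each). Hmox1 was most like Wars1 (0.872), S100a8 (0.871) and Sirpa (0.87), and Txnrd1 most like Dbf4 (0.893), Wee1 (0.889) and Lbr (0.884). Nqo1 reached only 0.745, with Lin54. These are descriptions over groups that differ and carry no test.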

How the data were processed

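The deposited table holds log2 values that the authors made with RMA in Affymetrix Expression Console, per the submitters' processing notes (versions not given). Its scale is taken from RMA, and each probe set was found to be centred on its median over the 30 arrays. Probe sets with 1 symbol in the platform annotation (18511 of 29489) were kept and averaged to 18166 genes. No low-value filter was possible, because levels are lost. Groups were taken from the treatment label of each rat. limma 3.58.1 (R 4.3.3) fitted 1 mean per group to all 30 arrays, with moderated tests and Benjamini-Hochberg adjustment over 18166 genes. Precision is limited by 6 arrays a group. The p-values set differences of group means against the spread between these rats, pooled over the 5 groups and moderated across genes. The steps were tested on simulated data. Members, gene lists and tests were chosen with earlier results of these data known. All 10 members are named throughout, and from each wider list up to 3 called genes per comparison by size of change, unless stated. Alternatives were array weights, the groups compared fitted alone, arrays centred on their own median, single probe sets, unoperated rats as control, and leaving out rats.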

Additional observations from a re-analysis of the deposited data

Results flagged for a closer look

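Within each group of 6, the highest and lowest rat of each member was set against the others by Dixon's test at its 95% critical value, over 50 sets of values. Chance passes about 1 in 20, and 4 of the 50 passed. In PH70, rat 139 lay far below the others for Gclc, at -0.52 where the others ran from 0.13 to 0.52, and for Txnrd1, at -0.064 where the others ran from 0.46 to 0.60. In PH30, rat 95 lay far above the others for Srxn1, at 0.62 where the others ran from -0.22 to -0.01, and for Nfe2l2, at 0.97 where the others ran from -0.42 to 0.01. These are the 2 rats whose arrays stood apart from their groups over all genes.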

How the results depend on the processing

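Of the 24 calls over 70 pairs of a member and a comparison, 13 held in every fit that left out 1 rat, 11 were lost in at least 1 and 0 reversed. Every one of the 24 was kept with array weights and without rats 95 and 139, which were picked from these data. All were also kept with arrays centred on their own median and with single probe sets. Those settings could hardly change a call, as array medians lay between -0.009 and 0.022 and each member has 1 probe set. Fitting the groups compared alone lost 5: Gclm in PH30 against sham (adjusted p = 0.059), Osgin1 in PH90 against sham (0.13), Keap1 in PH70 against PH30 (0.24), Txnrd1 in PH90 against PH70 (0.1) and Gclc in PH90 against PH30 (0.082). Unoperated rats as control could replace sham only in the calls of a resection group against sham. Of these, 10 were kept and 2 were lost, Srxn1 in PH70 (0.26) and Txnrd1 in PH90 (0.33).

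Counts of members moved as follows. In PH30 against sham, 0 were higher, 1 in the groups alone and 2 against unoperated rats; 1 was lower, 2 with array weights and without rats 95 and 139, and 0 in the groups alone. In PH70 against sham 3 were higher, and 5 with array weights and without those rats. Of all genes, 1906 were higher there, 2494 with array weights and 2315 without those rats. In sham against unoperated 0 were higher and 0 lower, 1 higher in the groups alone, and 2 lower with array weights, in the groups alone and without those rats. In PH70 against PH30 1 was higher, 3 with array weights, 0 in the groups alone and 5 without those rats. In PH90 against PH70 1 was higher, and 2 without those rats, where 2558 of all genes were higher, and 2671 without those rats. Leaving out 1 rat gave 0 to 2 lower in PH30 against sham, 2 to 5 higher in PH70 against sham, 2 to 3 higher and 1 to 4 lower in PH90 against sham, 0 to 4 higher in PH70 against PH30, 1 to 2 higher and 3 to 7 lower in PH90 against PH70, and 1 to 2 higher and 2 to 3 lower in PH90 against PH30.

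Signs turned only for uncalled differences. Gclc in PH30 against sham was -0.0069 with array weights, -0.13 without rats 95 and 139 and -0.42 against unoperated rats. Against unoperated rats, Osgin1 in PH30 was -0.35, and in PH70 Gclc was -0.13 and Nfe2l2 -0.22. Nqo1 in PH90 against sham was -0.035 with array weights. Slc7a11 in PH70 against PH30 was 0.0035 with array weights, 0.0048 without rats 95 and 139, and 0.0074 with arrays centred. Keap1 in PH90 against PH30 was 0.0185 without rats 95 and 139. Leaving out 1 rat, the ranges that crossed 0 were -0.13 to 0.25 for Gclc, -0.22 to 0.064 for Nfe2l2 (PH30 against sham), -0.13 to 0.28 for Nqo1 (PH90 against sham), -0.30 to 0.14 for Osgin1 (PH70 against sham), -0.11 to 0.0185 for Keap1 (PH90 against PH30), -0.0276 to 0.0142 for Slc7a11 (PH70 against PH30), and -0.0134 to 0.0295 for Keap1 and -0.0109 to 0.0296 for Slc7a11 (sham against unoperated). The cause was not tested.

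Over all genes, 1005 were called in PH30 against sham, 1938 with array weights, 1286 in the groups alone, 1984 without rats 95 and 139 and 1789 against unoperated rats. Counts over all genes are not given here for the fits that left out 1 rat. In sham against unoperated, 134 were called, 539 with array weights, 721 in the groups alone and 316 without those rats. In PH70 against PH30, 413 were called, 2178 with array weights, 2420 without those rats and 2 in the groups alone. No paired analysis was possible because no rat number occurs in more than 1 group.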

Other observations

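Detoxification enzymes and exporters were counted against both kinds of control in the 2 smaller resections. Of the 20 measured, 0 rose and 8 fell in PH30 against unoperated, beside 0 and 0 against sham, where 6.37% of all genes fell against unoperated and 3.34% against sham. In PH70, 0 rose and 9 fell against unoperated, beside 0 and 2 against sham, where 9.17% of all genes fell against unoperated and 8.15% against sham. In sham against unoperated 0 rose and 1 fell, where 0.308% of all genes were higher and 0.429% lower. The mean over the list averaged 0.33 ± 0.09 in unoperated livers, 0.00 ± 0.11 in sham livers, -0.10 ± 0.12 in PH30, -0.11 ± 0.16 in PH70 and -0.45 ± 0.25 in PH90 (SD, n = 6 rats each). The difference between the comparisons was not tested, and they share arrays.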
